A study of Mus musculus with 4 samples.

Results

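The genes described here belong to the calcitonin peptide family and its receptor system, followed through the cells of the mouse epididymis and vas deferens: the ligands *Iapp* (amylin) and *Adm* (adrenomedullin), the receptor *Calcrl* (calcitonin receptor-like receptor) and its accessory proteins *Ramp1*, *Ramp2* and *Ramp3*. They are 6 of the 16892 genes of the count matrix, taken by name, and all 6 were present. Single-cell RNA-Seq was performed on 4 libraries, of which 3 came from successive segments of the epididymis (the caput, then the corpus, then the cauda) and 1 from the vas deferens. Each library was a pool of 8 pieces of tissue from the same 4 FVB/NJ males of 10 to 12 weeks, untreated and with no engineered allele named, and the dissociation was designed to deplete sperm. Because each region was 1 pooled library, region and library cannot be told apart, no level has a replicate, and no test or p-value is given.

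The matrix holds 8880 cells and 26639701 unique molecular identifiers (UMIs, each standing for 1 captured transcript), after the removal of ambient RNA that had taken 2.80% to 4.48% of the UMIs of a library. The libraries held 1433 to 3506 cells and 4408989 to 10744928 UMIs, with a median of 1433 to 2207 UMIs per cell, and 43 of 8837 distinct barcodes occurred in more than 1 library. The authors' 34 populations were grouped here into 7 cell types: 3956 principal, 348 clear, 1412 basal, 502 muscle, 2222 stromal, 245 endothelial and 195 immune cells. Of the marker lists for these types, each had its highest summed level in the type it names. A level is given as UMIs of a gene per 1000000 UMIs of a group of cells (UPM), with a 95% interval that covers counting error only. Of the 6 genes, *Iapp* had 16680 UMIs in all, *Adm* 8387, *Ramp1* 5191, *Ramp3* 2668, *Calcrl* 1324 and *Ramp2* 501.

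Amylin and adrenomedullin are secreted peptides that share a ring closed by a disulfide bond and an amidated C-terminus. Adrenomedullin is known as a vasodilator and as a factor needed for blood and lymphatic vessels, whereas amylin is best known as the peptide that pancreatic beta cells release together with insulin. Their receptors are pairs of proteins. *Calcrl* paired with *Ramp1* gives the receptor for calcitonin gene-related peptide, *Calcrl* paired with *Ramp2* or *Ramp3* gives the adrenomedullin receptors, and amylin receptors are formed by the calcitonin receptor, *Calcr*, with a RAMP. *Calcrl* needs a RAMP to reach the cell surface, so that a receiver cell must hold both transcripts.

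The coding sequences of both mature peptides are shown because they define the ligands whose transcripts are followed here. They were read 5′ to 3′ from the GRCm38 assembly (the same as mm10) on the plus strand. The capitals mark the codons of both cysteines of the ring and, at the 3′ end, the glycine codon and both basic codons that form the amidation signal. The *Iapp* sequence lies at chr6:142303334-142303453 in exon 3 of 3 and encodes 37 residues, and the *Adm* sequence lies at chr7:110628896-110629054 in exon 4 of 4 and encodes 50.
Iapp: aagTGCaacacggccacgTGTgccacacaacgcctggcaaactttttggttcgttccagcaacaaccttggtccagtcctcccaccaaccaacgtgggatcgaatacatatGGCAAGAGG
Adm: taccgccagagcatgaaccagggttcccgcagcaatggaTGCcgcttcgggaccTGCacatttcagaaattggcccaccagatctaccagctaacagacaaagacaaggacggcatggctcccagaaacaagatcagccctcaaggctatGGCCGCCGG
In both peptides 4 codons separate the cysteines, at residues 2 and 7 of amylin and at residues 14 and 19 of adrenomedullin. In the same annotation the *Iapp* gene spans chr6:142298423-142303961 on the plus strand and overlaps *Slco1a5* on the other strand, while *Calcrl* lies at chr2:84330626-84425411 on the minus strand. *Ramp1* lies at chr1:91179822-91225196, *Ramp2* at chr11:101246028-101259546 and *Ramp3* at chr11:6658521-6677475, all on the plus strand, and *Ramp2* overlaps *Vps25* on its own strand. *Vps25* had 55.1 UPM in endothelial cells and 86.2 UPM in principal cells, an order opposite to that of *Ramp2*.

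Each ligand came mainly from 1 epithelial cell type, and the receptor from the cells outside the epithelium. Clear cells held 98.3% of all *Iapp* UMIs and basal cells 88.4% of all *Adm* UMIs, whereas stromal, muscle and endothelial cells held 49.7%, 32.0% and 14.7% of the *Calcrl* UMIs. Of the accessory genes, principal cells held 73.2% of *Ramp1*, endothelial cells 47.9% of *Ramp2*, and principal cells 55.02% of *Ramp3*, whose level was highest in the immune cells that held 6.18% of its UMIs. By a rule that asked for 20 or more UMIs in the highest type and a 4-fold or larger excess over all others, 3 of the 6 genes (*Iapp*, *Adm* and *Ramp2*) were restricted to 1 of the 7 types, and 12.0% of 11352 genes met the same rule. The level in the highest type over that in the next was 631 for *Iapp*, 8.86 for *Adm* and 9.81 for *Ramp2*, against 2.88 for *Ramp1*, 1.85 for *Ramp3*, 1.20 for *Calcrl* and a median of 1.40 over all genes that had the minimum of UMIs.

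**Figure D1:**
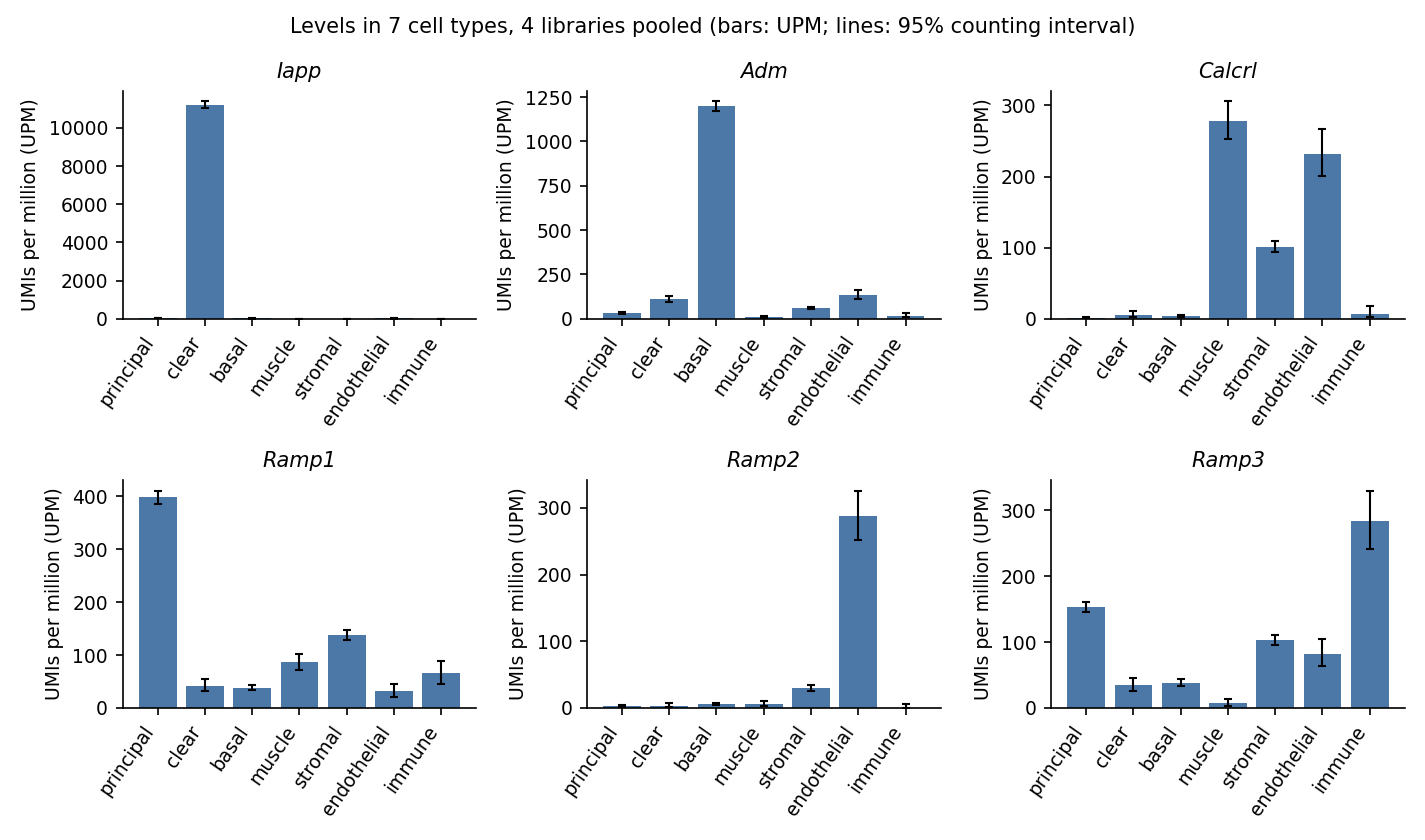
Level of each of the 6 genes in the 7 cell types, with all libraries pooled. Bars give UPM on a linear axis and lines the 95% counting interval. *Iapp* peaks in clear cells at 11214 UPM and *Adm* in basal cells at 1199 UPM, while *Calcrl* is high in muscle, endothelial and stromal cells.

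Clear cells are the proton-pumping cells of the epididymal epithelium, and within them *Iapp* marked a subset. The level in clear cells was 11214 UPM (11043 to 11387, 16392 UMIs). It was 17.8 UPM in principal cells (15.2 to 20.7), 16.8 UPM in endothelial cells, 13.7 UPM in basal cells and 2.93 UPM in stromal cells. The endothelial value rests on 14 UMIs in 2 cells of the caput library, and 28 of the basal UMIs lay in 1 cell of the cauda. No *Iapp* UMI was found in muscle or immune cells, which allows up to 1.97 and 5.15 UPM (the level that 3 UMIs would give, the limit used here wherever a group held none).

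By library, *Iapp* in clear cells was 23641 UPM in the caput and 21603 UPM in the corpus. In the 105 clear cells of the cauda it was 31.1 UPM (18 UMIs), and the 38 of the vas deferens held none, which allows up to 20.03 UPM. The caput and corpus were thus far above the cauda and vas deferens, and close to each other, with the caput over the corpus at 1.09 (1.06 to 1.13). With every cell weighted equally this ratio was 1.56. Within the authors' Amylin-positive population, described next, the order was the other way. Its cells had a median of 64 *Iapp* UMIs in the caput and 172 in the corpus, or 3.75% and 3.98% of a cell's UMIs. They were 39 of the 73 clear cells of the caput and 39 of the 132 of the corpus. Of 5074 genes, 0.374% were at least 4-fold higher in the clear cells of both the caput and the corpus than in those of both the cauda and the vas deferens, and *Iapp* was among them at 695-fold or more, by a rule chosen after its values were seen.

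The authors' Amylin-positive population, named for this gene and clustered on these counts, held 93.5% of all *Iapp* UMIs in 78 cells, 39 from the caput and 39 from the corpus. Each of the 78 cells held *Iapp*, from 7 to 1302 UMIs with a median of 118. The gene made up 1.10% to 21.7% of a cell's UMIs, with a median of 3.82%, so that its amount differed widely within the subset. The level was 47344 UPM in these cells against 659.6 UPM in the main clear population and 1695 UPM in the low-UMI clear population, and 67.7 times that of all other clear cells (63.0 to 72.8). Leaving out the cauda library changed this ratio to 33.8, and leaving out the corpus library changed it to 462.

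The boundary was less sharp in the corpus than in the caput. In the main clear population 25 of 69 corpus cells and 3 of 28 caput cells held *Iapp*, at levels of 2467 and 479 UPM, and the Amylin-positive cells were 20.1 times above them in the corpus and 92.4 times in the caput. Over all libraries 5 of 216 main clear cells and 4 of 54 low-UMI clear cells gave more than 1% of their UMIs to *Iapp*, which all 78 Amylin-positive cells did. Outside clear cells 64 of 8532 cells held 288 *Iapp* UMIs, and 4 of them passed 1%: 3 principal cells of the caput and 1 of the corpus, each with only 257 to 412 UMIs. The caput cells held 0, 2 and 5 UMIs of clear cell markers. Of the 41 clear cells with *Iapp* outside the Amylin-positive population, 2 were called as doublets, with 122 of the 792 UMIs. Among the 64 cells outside clear cells 6 were called, with 51 of the 288 UMIs, while 2.00% of all cells were called. After each cell with at least 1000 UMIs was thinned to 1000, *Iapp* was found in 76 of 238 clear cells (31.9%, 26.1 to 38.3) and in 0.346% of basal cells, types of near-equal depth with medians of 4430 and 4333 UMIs (34.2% of clear cells without thinning).

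**Figure D2:**
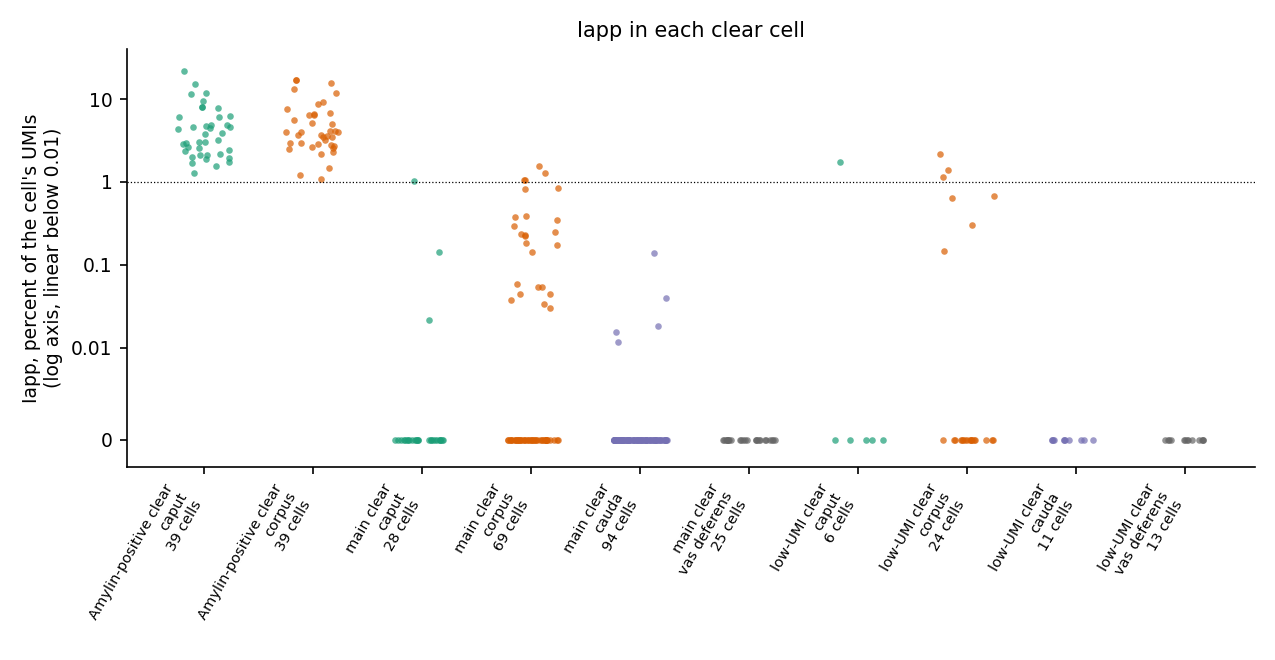
*Iapp* as a percent of the UMIs of each clear cell, by population and library. The 78 Amylin-positive cells of the caput and corpus lie between 1.10% and 21.7%, and the clear cells of the vas deferens lie at 0.

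The Amylin-positive cells held the clear cell markers of the main clear population. *Atp6v1g3*, a subunit of the proton pump, was at 8170 and 6968 UPM in the 2 populations, and *Foxi1*, a transcription factor of proton-pumping cells, at 662 and 681 UPM. *Car2*, a carbonic anhydrase, was at 243 and 204 UPM, and its order turned between libraries, with 356 (264 to 469) and 163 UPM (99.3 to 251) in the caput and 159 and 200.1 UPM in the corpus. The low-UMI clear population was lower in each of them, with *Atp6v1g3* at 1031 UPM and *Foxi1* at 183 UPM. Of 7 islet endocrine markers, 4 were in the matrix, and their summed level was highest in principal cells at 31.2 UPM. *Slco1a5*, an anion transporter gene that overlaps *Iapp*, was also highest in clear cells, at 229 UPM against at most 5.15 UPM in any other type. Within clear cells it was lower in the Amylin-positive cells, at 103 UPM.

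Basal cells, which lie along the base of the epithelium, were the main source of *Adm*. Their level was 1199 UPM (1172 to 1226, 7412 UMIs), against 135 UPM in endothelial, 112 in clear, 58.0 in stromal, 31.4 in principal, 17.2 in immune and 8.52 UPM in muscle cells. Endothelial and clear cells did not differ beyond counting error, with a ratio of 1.21 (0.946 to 1.55). After thinning, 662 of 1155 basal cells (57.3%, 54.4 to 60.2) held *Adm*, against 9.24% of clear, 5% of endothelial, 4.66% of stromal, 2.48% of principal, 1.27% of immune and 1.10% of muscle cells. Without thinning the basal share was 76.0%, and 21.3% of clear, 10.98% of stromal and 10.6% of endothelial cells held it.

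*Adm* was found in the basal cells of every library, and per UMI it was lowest in the caput and highest in the vas deferens. The caput had 935 UPM (304 cells), the corpus 1153 UPM (521 cells), the cauda 1194 UPM (193 cells) and the vas deferens 1562 UPM (394 cells). The corpus and cauda intervals overlapped, and the vas deferens was 1.67 times the caput (1.56 to 1.79). The thinned shares of basal cells with *Adm* were 46.3%, 58.3%, 54.7% and 65.3% in the same order, in which the cauda was not above the corpus. In UMIs per cell the order differed, with 4.34, 5.45, 5.92 and 5.36 from the caput to the vas deferens, whose basal cells had the lowest median depth (3647 UMIs, against 5360 to 5821).

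Among basal populations the low-UMI cells had 2324 UPM of *Adm*, the main population 1171 UPM and the Notch2-high population 902 UPM. The low-UMI cells were 1.98 times the main population (1.84 to 2.14), and 1.69, 2.54, 1.91 and 1.98 times within the caput, corpus, cauda and vas deferens. In UMIs per cell the order turned, since a main basal cell held 6.5 and a low-UMI basal cell 2.5 on average. The 15 basal-macrophage cells held 1 *Adm* UMI. In clear cells *Adm* was at 143, 77.1, 69.1 and 327 UPM along the tract. In the vas deferens 27 of those 49 UMIs came from 13 low-UMI clear cells, and the main clear cells of that library were at 157 UPM. The 13 cells held no UMI of *Foxi1* or *Atp6v1g3*, which allows up to 312 UPM of each. The main clear cells of that library had 307 UPM of *Foxi1* and 3545 UPM of *Atp6v1g3*, so for *Foxi1* the 13 cells were too shallow to differ.

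The ratio of *Adm* to *Krt14*, a keratin of basal cells, was 0.416 UMIs per UMI in basal cells and between 1.39 and 3.54 in each of the other types. Principal cells came closest, with 0.514 in the cauda and 0.707 in the caput, and they went up to 2.76 in the corpus. The basal ratio was itself between 0.331 and 0.548 by library, and was 0.922 in low-UMI basal cells. Over all libraries *Krt14* had 216 UMIs in principal, 123 in stromal, 46 in clear, 41 in endothelial, 5 in muscle and 3 in immune cells. The muscle and immune ratios thus rest on too few UMIs to be read.

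*Calcrl*, the receptor, was at 278 UPM in muscle (252 to 306), 232 UPM in endothelial (201 to 267) and 101 UPM in stromal cells (93.8 to 109). It was at 6.87 UPM in immune, 5.47 in clear, 3.72 in basal and 1.36 UPM in principal cells, each of which rested on 4 to 23 UMIs. Muscle was 1.20 times endothelial (1.01 to 1.43). This order held on the vas deferens library, without which muscle was 0.552 times endothelial. The ratio was 1.06 without the endothelial cells that held no endothelial marker (described below), and 1.07 in UMIs per cell. Endothelial cells were 2.29 times stromal cells (1.94 to 2.69), and stromal cells were 14.8 times immune cells (5.74 to 54.3). After thinning, 27% of 363 muscle cells, 25.0% of 200 endothelial cells and 10.3% of 1695 stromal cells held *Calcrl*. The same share was 0.606% in basal cells, 0.158% in principal cells and 0 of 238 in clear cells, with median depths of 1803, 2590 and 2716.5 UMIs in the muscle, endothelial and stromal cells and 4333, 934.5 and 4430 in the others.

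On the UPM scale the vas deferens held the highest *Calcrl* level in each of these 3 types, although in endothelial cells its excess over the cauda was within counting error (1.38, 0.806 to 2.54). Per endothelial cell the cauda was higher, with 1.25 UMIs over 12 cells against 0.875 in the vas deferens. In endothelial cells the caput had 155 UPM (22 UMIs), the corpus 189 UPM (31), the cauda 201 UPM (15) and the vas deferens 277 UPM (126). The vas deferens was 1.78 times the caput (1.13 to 2.95) and 1.10 times with every cell weighted equally. In stromal cells it was 46.6, 43.7, 30.7 and 198 UPM, and the vas deferens was 4.25 times the caput (3.06 to 6.05). *Calcrl* was the only one of the 6 genes that was at least 4-fold higher in the stromal cells of the vas deferens than in those of each other library, a rule chosen with the values known that 1.4% of 7919 genes met. Muscle cells of the cauda (58 cells) had 98.6 UPM and those of the vas deferens (437 cells) 316 UPM, while the corpus had 1 UMI in 7 cells and the caput no muscle cell.

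Within stromal cells, *Calcrl* was at 250.1 UPM in the secretory vas population, 220.0 UPM in the stem-like vas population, 65.1 UPM in fibroblasts and 44.8 UPM in the connective population. The connective cells of the vas deferens were themselves at 102 UPM, so that within that library the stem-like cells were 2.22 times (1.67 to 2.98) and the secretory cells 2.52 times (1.87 to 3.42) the connective cells. In muscle, the muscle 1 population was at 671 UPM and muscle 2 at 181 UPM, with 0.77 and 0.92 UMIs per cell. Muscle 1 cells had a median of 1080.5 UMIs and muscle 2 cells 5423.5, so the levels differed 3.71-fold on a scale per UMI and lay in the other order per cell.

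**Figure D3:**
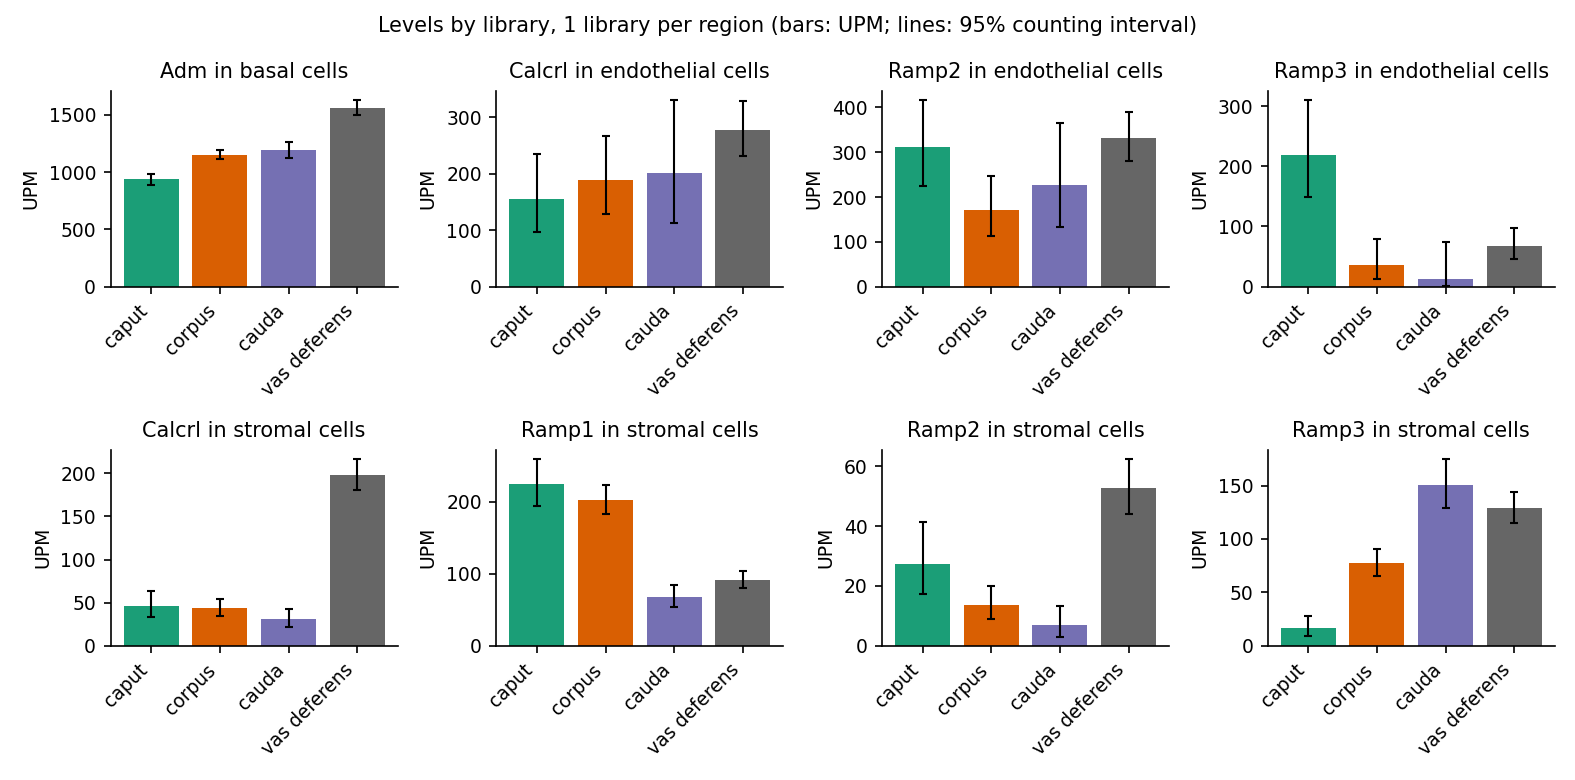
Levels by library of *Adm* in basal cells, of *Calcrl*, *Ramp2* and *Ramp3* in endothelial and stromal cells, and of *Ramp1* in stromal cells. Bars give UPM on a linear axis and lines the 95% counting interval. *Adm* in basal cells goes from 935 UPM in the caput to 1562 UPM in the vas deferens, and *Calcrl* in stromal cells stands at 198 UPM in the vas deferens against 30.7 to 46.6 UPM elsewhere.

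Not all cells with the endothelial label held endothelial markers. Of 245 cells, 146 held 3 or more of 6 endothelial markers (*Pecam1*, *Cdh5*, *Kdr*, *Tie1*, *Emcn*, *Cldn5*), 54 held 1 or 2, and 45 held none, a split made after the values were seen. The median depth was 1544 UMIs in the 45 cells, 1311.5 in the 54 cells and 3311.5 in the 146 cells. The part of depth in this split was not tested. The 45 cells without a marker had 759 UPM of *Adm* (600.3 to 948) and gave 78 of the 113 endothelial *Adm* UMIs, against 30.7 UPM in the 54 cells and 50.4 UPM (34.5 to 71.2) in the 146 cells. Of these 78 UMIs, 73 lay in 5 cells with 10 to 20 each, and the other 40 cells were at 68.1 UPM (22.1 to 159), within counting error of the cells with 3 or more markers. The 45 cells also held stromal markers at 2327 UPM, principal markers at 1616, muscle markers at 1402, immune markers at 798, basal markers at 701 and mural markers at 682 UPM. The 146 cells held the same marker lists at 31.5, 213, 72.5, 290, 318 and 6.30 UPM in that order. Their basal value came from *Krt14* and *Itga6*, with no UMI of *Krt5* or *Trp63*. Over the cell types *Itga6* was itself highest in endothelial cells, so this value is not a measure of basal content. Their immune value came from *Cd74* alone, with no UMI of *Ptprc*, *Lyz2* or *Cd3e*. The 45 cells held UMIs of all 4 basal markers and of 3 of the 4 immune markers. The part of these other cell types in the endothelial *Adm* was not tested. *Calcrl* went the other way, with 19.5 UPM (2 UMIs) in cells without a marker, 276 UPM in the 54 cells and 260 UPM in the 146 cells. *Ramp2* was at 48.7, 215 and 337 UPM in the same groups.

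**Figure D4:**
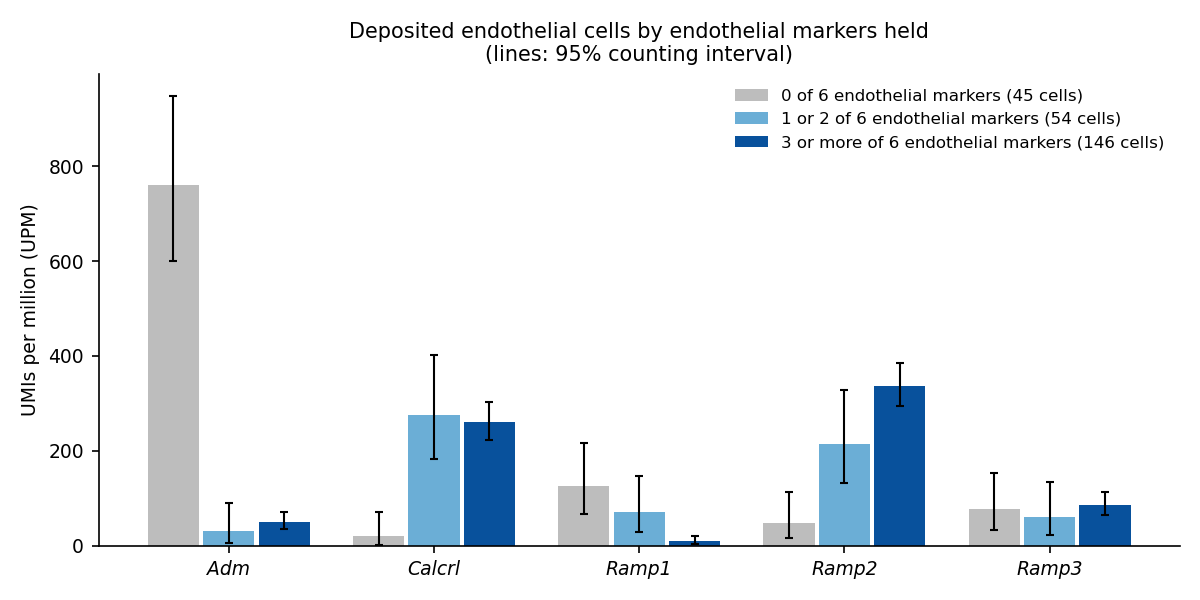
Levels of the genes in the 245 cells labelled endothelial, split by how many of 6 endothelial markers a cell held (UPM, 95% counting intervals). *Adm* is highest in the 45 cells with no marker at 759 UPM, where 5 cells hold 73 of its 78 UMIs, and *Calcrl* and *Ramp2* are highest in cells with markers.

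In the 146 cells with 3 or more markers, *Adm* went from 146 UPM in the caput through 86.7 and 53.7 UPM in the corpus and cauda to 14.1 UPM in the vas deferens, on 13, 10, 4 and 5 UMIs. The intervals of the caput, corpus and cauda overlapped, and the vas deferens (4.56 to 32.8) lay below those of the caput (77.6 to 249) and corpus (41.6 to 159). *Calcrl* in the same cells was at 224, 234, 202 and 289 UPM, with overlapping intervals. Cells with a marker of blood vessel endothelium and none of lymphatic endothelium numbered 148 and held *Calcrl* at 254 UPM and *Ramp2* at 358 UPM. The 8 cells with 2 or more lymphatic markers held *Calcrl* at 445 UPM (222 to 796) and *Ramp2* at 162 UPM (44.1 to 414), intervals too wide to order them.

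*Ramp2*, a RAMP that pairs with *Calcrl* as an adrenomedullin receptor, was the RAMP with the highest level in endothelial cells. Its level there was 287 UPM (252 to 326, 240 UMIs), and 29.3 UPM in stromal cells (25.3 to 33.8), a ratio of 9.81 (8.08 to 11.9). It was 5.66 UPM in basal, 5.25 in muscle, 2.74 in clear and 2.51 UPM in principal cells, and no UMI was found in immune cells. By library the endothelial level was 311, 170.4, 228 and 332 UPM from the caput to the vas deferens. The vas deferens was 1.95 times the corpus (1.30 to 3.03), and did not differ from the caput beyond counting error (1.07, 0.760 to 1.53). In the caput endothelial cells *Ramp3* was at 219 UPM (149 to 311), an interval that overlapped that of *Ramp2* (226 to 417). After thinning *Ramp2* was found in 43 of 200 endothelial cells (21.5%, 16.02 to 27.8) and in 0.211% of principal cells (49.4% of endothelial cells without thinning).

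Stromal *Ramp2* was concentrated in the stem-like vas population at 92.9 UPM, against 39.96 UPM in the secretory vas population and 11.2 UPM in connective cells. Endothelial cells were 3.09 times the stem-like cells (2.45 to 3.92). In *Calcrl* the same 2 populations, with all libraries pooled, stood at 232 and 220.0 UPM, a ratio of 1.06 (0.871 to 1.28). They were thus alike in the receptor within counting error on pooled values, and not in this RAMP. The endothelial cells of the vas deferens alone had *Calcrl* at 277 UPM (231 to 330), so the likeness depends on pooling the endothelial cells of other libraries. By library, stromal *Ramp2* was at 27.5, 13.7, 6.82 and 52.6 UPM along the tract.

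*Ramp1*, which with *Calcrl* makes the receptor for calcitonin gene-related peptide, was highest in principal cells, the absorptive and secretory cells of the epithelium that had almost no *Calcrl*. Its level was 398 UPM there (385 to 410.4), 138 UPM in stromal (129 to 147), 86.6 in muscle, 65.3 in immune, 42.4 in clear, 38.2 in basal and 31.1 UPM in endothelial cells. In caput principal cells it was 3.48 UPM (6 UMIs over 736 cells), whereas those of the corpus had 498 UPM, of the cauda 748 UPM and of the vas deferens 382 UPM. The other libraries were 110 to 215 times the caput, and *Ramp1* was 1 of the 1.52% of 9122 genes that were at least 4-fold higher in the principal cells of each other library than in those of the caput, a rule chosen after its values were seen.

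The onset of *Ramp1* fell within the corpus library. Of the 15 principal populations, principal 1, 3, 4 and 5 held no *Ramp1* UMI and principal 2 held 6, whereas principal 6 to 15 held 344 to 940.3 UPM. The corpus cells of principal 5 had 0 UMIs over 172 cells, which allows up to 9.83 UPM, and those of principal 4 had 0 over 55 cells. In the same library principal 6 was at 797 UPM (713 to 889) and principal 7 at 627 UPM (565 to 694), so that principal 6 was at least 81.1 times principal 5 taken at that limit. The populations were clustered on these counts and their levels are a description.

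*Ramp3*, the other RAMP of the adrenomedullin receptors, had a different pattern in the same cells. Over all principal cells it was 153 UPM (146 to 162), and by library the corpus had 645 UPM, against 42.4 UPM in the caput, 60.9 UPM in the cauda and 79.9 UPM in the vas deferens. The corpus was 8.07 times the vas deferens (7.15 to 9.13) and stood alone, as did the corpus in 1.46% of 9122 genes by the same 4-fold rule, again chosen with the values known. Principal 6 had 867 UPM, principal 4 had 730.3 UPM, principal 7 had 646 UPM and principal 5 had 233 UPM. Principal 1 and 2 had 3.92 and 5.92 UPM, and principal 8 to 15 between 36.8 and 141 UPM. *Ramp3* was thus present in principal 4 and 5, where no *Ramp1* was found, and both were high in principal 6 and 7.

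**Figure D5:**
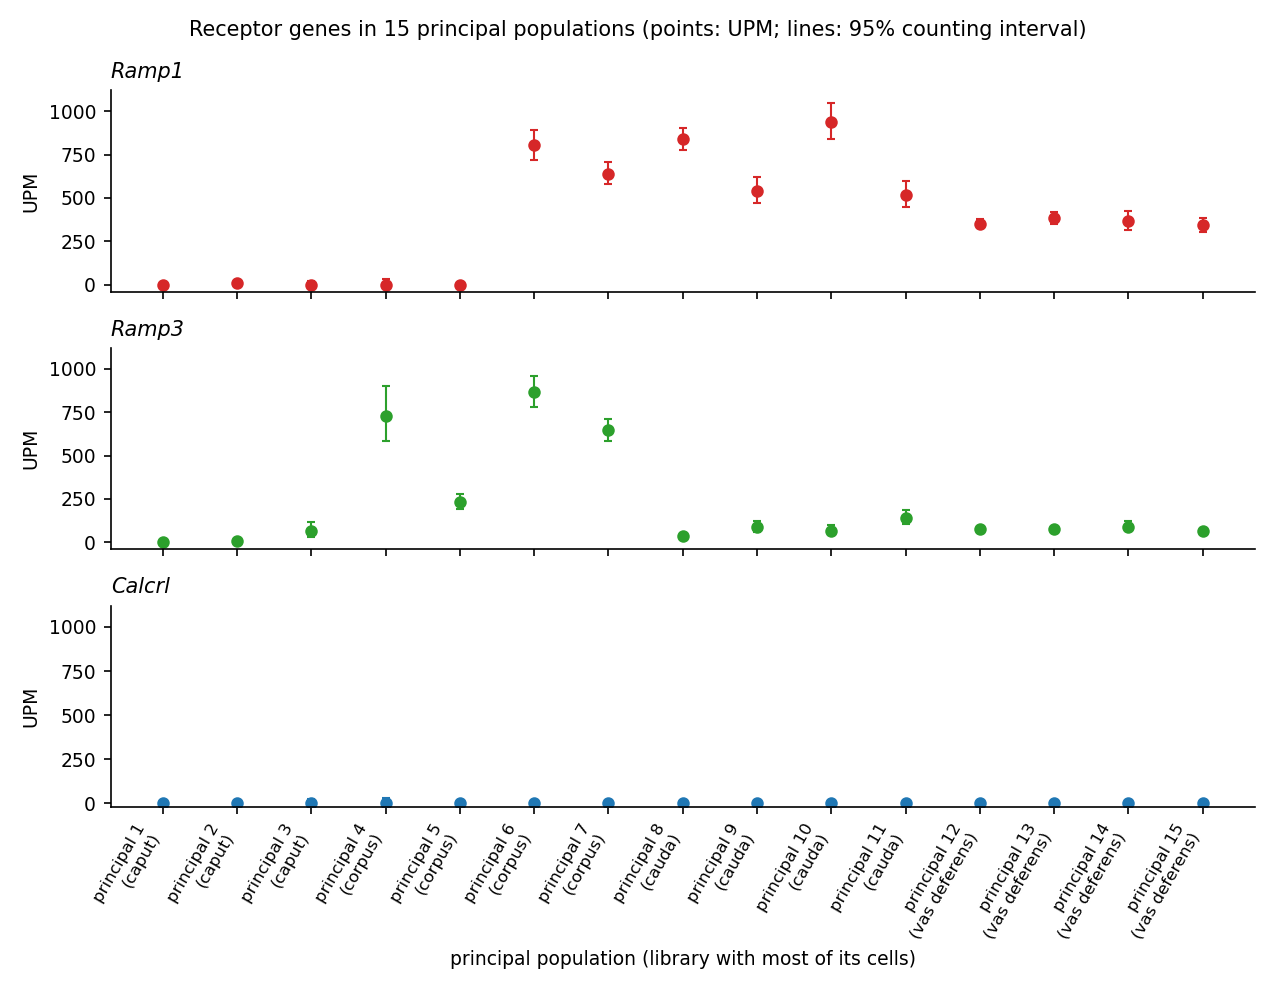
Levels of *Ramp1*, *Ramp3* and *Calcrl* in the 15 principal populations (UPM, with 95% counting intervals), ordered along the tract. *Ramp1* is near 0 in principal 1 to 5 and 344 to 940.3 UPM from principal 6 on, while *Ramp3* is highest in principal 4, 6 and 7.

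In immune cells *Ramp3* was at 283 UPM (242 to 330), 1.85 times principal cells (1.56 to 2.17). T cells had 707 UPM (559 to 882) and dendritic cells 717 UPM (549 to 919), macrophages 81.5 UPM, and no UMI was found in 26 Trem2 macrophages. The immune level was 327, 384, 85.0 and 309 UPM along the tract, on 10, 42, 9 and 104 UMIs. Without the vas deferens library immune cells were only 1.11 times principal cells. In stromal cells *Ramp3* was at 103 UPM, highest in the secretory vas population at 226 UPM and in fibroblasts at 132 UPM, and went by library from 16.7 in the caput to 77.2, 151 and 129 UPM. Stromal *Ramp1* had the other order, with 225, 202, 68.2 and 91.3 UPM, and was at 199.6 UPM in connective cells against 23.7 UPM in stem-like vas cells. Endothelial *Ramp3* was at 219 UPM in the caput (31 UMIs) and 13.4 to 68.2 UPM elsewhere.

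A receiver cell must hold the receptor and a RAMP, and detection of both in 1 cell was counted after thinning. In endothelial cells 13 of 200 held *Calcrl* and *Ramp2* (6.50%, 3.51 to 10.9), 2 held *Calcrl* and *Ramp1*, and 1 held *Calcrl* and *Ramp3*. *Ramp2* was found in 26.0% of endothelial cells with *Calcrl* (14.6 to 40.3) and in 20% of those without (13.9 to 27.3), so that no link within cells was detectable at this depth. Without thinning 71 of 245 cells held both (29.0%). In stromal cells a RAMP was found in 32 of 175 cells with *Calcrl* (18.3%), most often *Ramp3* with 17 cells, then *Ramp2* with 10 and *Ramp1* with 7. In muscle *Ramp1* was found in 13 of 98 cells with *Calcrl* (13.3%, 7.26 to 21.6), *Ramp3* in 1 and *Ramp2* in none.

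In corpus principal cells 45 of 346 held *Ramp1* and *Ramp3* together (13.01%), and none of the 346 held a *Calcrl* UMI. At 1000 UMIs per cell this does not limit how many cells express the gene, and without thinning 2 of 929 corpus principal cells held a *Calcrl* UMI. *Ramp3* was found in 52.9% of those with *Ramp1* (41.8 to 63.9) and in 36.0% of those without (30.2 to 42.2). Within principal 6 the shares were 59.6% and 41.3%, and within principal 7 they were 41.9% and 46.1%.

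Of 39 other genes of the pathway, in 6 lists, all were in the matrix, 32 had at least 20 UMIs in their highest type and 4 were restricted to 1 type by the 4-fold rule (*Pcsk1n*, *Scg5*, *Adcy4* and *Ankrd37*), with a median fold of 1.56. Over all genes the same rule was met by 12.0% and the median fold was 1.40, so the 4 of 32 were near the background. The other ligands were rare. *Adm2*, a second adrenomedullin-like peptide, had 58 of its 63 UMIs in basal cells (9.38 UPM), *Calcb* 93 UMIs in all with muscle highest at 23.6 UPM, and *Calca* 55 UMIs in all. *Calcr*, the receptor on which amylin receptors are built, had 3 UMIs in the 8880 cells, all in clear cells, and is named here because of that count. Of the other receptors and partners, *Ackr3*, a scavenger of adrenomedullin, was highest in endothelial cells at 89.8 UPM, *Gpr182* had 14 of its 19 UMIs there, and *Crcp*, which encodes a component of the calcitonin gene-related peptide receptor complex, was highest in clear cells at 37.6 UPM.

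Among 7 genes of prohormone processing, 5 had the minimum of UMIs and 2 were restricted (12.0% of all genes). *Scg5*, a chaperone of a prohormone convertase, was at 447 UPM in clear cells, 19.9 times the next type, and at 300.5 UPM in the Amylin-positive cells. *Pcsk1n*, a convertase inhibitor, was at 287 UPM in stromal cells. *Cpe*, which trims basic residues, was at 541 UPM in stromal, 463 in basal and 21.9 UPM in clear cells, with 2 UMIs in the Amylin-positive cells. *Pam*, the enzyme that amidates peptides such as those whose signals are printed above, was at 438 UPM in stromal, 69.8 in clear and 34.1 UPM in basal cells. The convertases *Pcsk1* and *Pcsk2*, named for their low counts, had 2 and 12 UMIs in all cells. Of the peptidases, *Mme* was highest in clear cells at 290.1 UPM and reached 328 UPM in the Amylin-positive cells, and *Ide* was at 26.6 UPM in principal and 26.0 UPM in clear cells.

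Of 14 genes of cyclic AMP signaling, the pathway into which *Calcrl* receptors signal, 13 had the minimum and 1 was restricted (12.0% of all genes), *Adcy4* in endothelial cells at 52.7 UPM. *Gnas*, the stimulatory G protein, was at 1501 UPM in clear and 1020 UPM in stromal cells, *Prkar1a* at 337 UPM in stromal and 305 UPM in endothelial cells, and *Pde4b* at 371 UPM in endothelial and 268 UPM in stromal cells. Of 9 genes induced by low oxygen, as *Adm* is known to be, 8 had the minimum and 1 was restricted, *Ankrd37* in endothelial cells at 135 UPM (12.0% of all genes). Basal cells were the highest type for 3 of the 8, and for 9.40% of all genes. *Slc2a1*, a glucose transporter, was at 409 UPM in basal against 164 UPM in endothelial cells, *Ndrg1* was level in basal and clear cells at 437 UPM each, and *Ldha* was highest in stromal cells at 1230.5 UPM.

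The genes most like each of the 6 were found by Pearson's r of log2(UPM + 10) over the 34 populations and 11613 genes, as a description, since populations share libraries and depth. For *Iapp* they were *Sp5* (0.94), *Atp6v0a4* (0.91) and *Plekhd1* (0.91), with *Sp5* at 155 UPM in the Amylin-positive and 68.9 UPM in the main clear cells. For *Adm* they were the Notch ligand gene *Dll1* (0.92), the tissue factor gene *F3* (0.85) and *Krt14* (0.85). *Calcrl* was most like *Rhoj* (0.93), *Cdh13* (0.92) and *Sparcl1* (0.92), and *Ramp2* like *Dnm3* (0.92), *Nfatc2* (0.87) and *Piezo2* (0.87). *Ramp1* was most like *Cwh43* (0.83), *Arhgap40* (0.82) and *Ly6f* (0.81). The likeness was weakest for *Ramp3*, with *Cers6* (0.61), *Fam83d* (0.59) and *Prpf3* (0.58), and by rank correlation only 3 of these 18 pairs were kept.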

How the data were processed

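The deposited counts, whole UMIs per gene and cell, were made by the authors from 10x libraries. Reads were aligned with HISAT2 2.0.4 to mm10, UMIs were counted on RefSeq genes with ESAT, cells were kept within limits of total UMIs, and ambient RNA was removed with a modified SoupX, so low levels in other cell types are what remained after that step. The authors' populations were used as deposited and grouped into 7 types. The members and lists were chosen with earlier results of these data known. Here UMIs were summed over groups and divided by the group's UMIs (UPM). Intervals are 95% intervals: exact Poisson for levels, exact conditional for ratios, Clopper-Pearson for shares. They cover counting error only. A group at 0 was raised to 3 UMIs (the floor, per group) in folds. For shares, cells with at least 1000 UMIs were thinned to 1000 (seed 1), leaving out 2062 principal, 110 clear, 257 basal, 139 muscle, 527 stromal, 45 endothelial and 37 immune cells. The rule for restricted genes was checked on simulated Poisson counts, only for genes well above the minimum of UMIs in every type. The check thus does not cover genes near that minimum or spread between cells beyond counting error. Named genes were the 6 members, of each list the 3 with most UMIs and any restricted to 1 type, and for each member the 3 of highest likeness. Doublets were called from simulated doublets in each library at an assumed rate (178 of 8880 cells, 2.00%), kept in the main values and left out as an alternative. None of the 78 Amylin-positive cells was called, but only 35.6% to 56.6% of the simulated doublets of a library reached its threshold. Other alternatives were deeper cells only, equal weight per cell, other thresholds and leaving out each library. After the data were seen, UMIs per cell and the endothelial cells without markers left out were added. Computation was in Python 3.11.15 with pandas 2.3.3 and numpy 2.4.6, doublets were called with scikit-learn 1.9.0, intervals came from scipy 1.17.1 and plots from matplotlib 3.10.9. Protein sequences were not used here.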

Additional observations from a re-analysis of the deposited data

How the results depend on the processing

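Of 101 alternatives over 18 results, 65 moved the value by less than its counting interval or, for counts, less than 1.5 times, 35 moved it further and 1 turned its direction. Leaving out each library in turn gave 91.5% to 96.1% for the share of *Iapp* UMIs in the Amylin-positive cells, 33.8 to 462 for their level over other clear cells (58.7 without the vas deferens), 7.59 to 10.2 for *Adm* in basal over the next type, 0.552 to 1.33 for *Calcrl* in muscle over endothelial cells, 2.08 to 3.87 for *Ramp1*, 8.56 to 16.04 for *Ramp2*, 1.11 to 2.29 for *Ramp3* and 893 to 1331 restricted genes. The value 0.552, which turned the order, was that without the vas deferens, and so were 16.04 and 893.

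With every cell weighted equally, the values were 90.6% and 73.2 for *Iapp*, 6.05 for *Adm* (over clear cells), 1.80 for *Calcrl*, 1.31 for *Ramp3*, and, between libraries, 1.51 for *Adm* in basal cells, 1.10 for *Calcrl* in endothelial cells and 1.56 for *Iapp* in the caput over the corpus. With called doublets left out, the *Iapp* share was 94.5%. On UMIs per cell, *Adm* was 11.2 (over clear cells), *Ramp1* 2.39 and *Ramp3* 2.28. Without the 45 endothelial cells that held no marker, *Adm* in basal cells was 10.7 times clear cells, then the next type. Endothelial cells with *Calcrl* and *Ramp2* were 1.34% after thinning to 500 UMIs and 29.0% without thinning, so the share follows depth. A 2-fold threshold gave 3094 restricted genes and added *Ramp1*, and an 8-fold threshold gave 715. *Iapp*, *Adm* and *Ramp2* were restricted at every threshold and without any 1 library. Rank correlation shared 3 of 18 pairs. The cause of these shifts was not tested. No paired analysis was possible because each region was a single library with no replicate number to pair. Depth limits the receptor genes most, with 501 *Ramp2* and 1324 *Calcrl* UMIs in all cells.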

Other observations

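RAMPs also bind receptors outside the calcitonin family, and principal cells held *Ramp1* and *Ramp3* with almost no *Calcrl*. Transcripts of such receptors, a list chosen after these values were seen, were rare. *Vipr1*, a receptor for vasoactive intestinal peptide, had 127 UMIs, of which 87 were in principal cells (9.10 UPM), and stood at 35.2 UPM in principal 6, 31.2 in principal 10, 22.5 in principal 8 and 17.1 UPM in principal 7. *Gcgr*, the glucagon receptor, had 22 of its 27 UMIs in clear cells (15.1 UPM). *Pth1r* had 145 UMIs in all, *Vipr2* 28, *Gper1* 22, *Sctr* 2 and *Crhr1* 1. *Casr*, also on the list, was not in the matrix and could not be counted.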
